A study of Mus musculus with 22 samples.

Results

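Primordial germ cells (PGCs) are the embryonic founders of sperm and eggs. 9 genes known for PGC specification or as PGC markers were followed across lines of mouse embryonic stem (ES) cells and embryonic germ (EG) cells: Prdm1, Tfap2c, Kit, Dppa3, Nanos3, Alpl, Dnd1, Ifitm1 and Ifitm3. They were listed by gene name, and all 9 were among the 19938 genes measured. EG cells are pluripotent lines derived from PGCs, and ES cells are pluripotent lines derived from embryos before implantation. The series asks how culture and cell origin relate in such lines.

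RNA was measured on 22 Affymetrix gene arrays, 1 per sample, in 5 groups. EG 2i (4 samples, 3 female) are EG lines derived directly in 2i medium, which is serum-free N2B27 with leukaemia inhibitory factor (LIF) and inhibitors of MEK (PD0325901) and of GSK3 (CHIR99021), on laminin. EG 2is (4 samples, 2 female) are EG lines kept in fetal calf serum (FCS) for their first 2 days and then in 2i. EG FCS (4 samples, 1 female) are EG lines in FCS with LIF on a layer of mouse embryonic fibroblast feeder cells. ES 2i and ES FCS (5 samples each, 2 female in each) are ES lines in these 2 cultures. All lines, in every group, carried the same mixed background of 129SvEv crossed to an Oct4-delta-PE-GFP transgenic, a green fluorescent reporter driven by part of the Oct4 regulatory sequence. The EG lines came from embryos of day 8.5. Medium and feeder layer changed together between the cultures, and some ES samples of the 2 cultures may be the same line, since established ES lines were also moved between them. Below, a numbered line means the sample with that replicate number. The cell-type field of all 10 ES samples reads EGCs, so titles and source names were used for the origin. The labels call the replicates separate samples and say no more, so the p-values below measure the spread between these samples, and the number of arrays limits every estimate.

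In the mouse embryo, BMP signals induce a few epiblast cells to express Prdm1, Prdm14 and Tfap2c, transcription factors that together set the germ cell fate and repress the somatic one. The new PGCs then carry Alpl, Dppa3 and Ifitm proteins, and depend on the receptor Kit and on the RNA-binding proteins Nanos3 and Dnd1 to survive while they migrate to the gonads. EG lines arise when PGCs taken into culture revert to a state much like that of ES cells.

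Values are on the log2 scale, where a difference of 1 is a doubling. Levels are comparable between samples for a gene and not between genes. Background was read from Eif2s3y, a gene of the Y chromosome, which reached at most 4.88 in the 10 female samples. For other genes this level is only a rough guide, since the floor of each probe set was not measured. The 9 pluripotency genes checked, Pou5f1 (Oct4) and Sox2 among them, had means above that level in every group. Of the PGC genes, only Dnd1 in EG 2i and EG 2is and Nanos3 in ES 2i had a group mean under it. The sizes of their differences may therefore be limited by the array's floor. Within groups, arrays correlated at 0.982 to 0.998 over all probe sets. Over the 19938 genes, ES 2i line 3 stood lowest, at a mean of 0.983 with its group. A gene is called, and said to have risen or fallen, at an adjusted p under 0.05 in limma's fit over all 19938 genes.

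RefSeq's promoter table (GRCm38.p6) held 6 of the 9 genes. Its windows run from 250 bases before to 50 bases after the annotated start of transcription. The 5 windows below belong to the genes whose levels set the pattern of the results: Kit and Alpl, which rose in 2i, Prdm1, which fell, and the neighbours Ifitm1 and Ifitm3, which behaved differently. Each is written 5′ to 3′ on its gene's strand, and capitals mark CG dinucleotides, the sites of DNA methylation.
Kit, plus strand, chr5:75574737-75575036: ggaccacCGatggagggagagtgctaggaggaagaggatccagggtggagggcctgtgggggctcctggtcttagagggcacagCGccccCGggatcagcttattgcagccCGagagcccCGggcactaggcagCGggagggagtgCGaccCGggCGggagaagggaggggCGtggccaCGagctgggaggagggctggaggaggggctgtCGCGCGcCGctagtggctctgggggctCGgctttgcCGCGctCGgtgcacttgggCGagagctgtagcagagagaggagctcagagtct
Alpl, minus strand, chr4:137796335-137796634: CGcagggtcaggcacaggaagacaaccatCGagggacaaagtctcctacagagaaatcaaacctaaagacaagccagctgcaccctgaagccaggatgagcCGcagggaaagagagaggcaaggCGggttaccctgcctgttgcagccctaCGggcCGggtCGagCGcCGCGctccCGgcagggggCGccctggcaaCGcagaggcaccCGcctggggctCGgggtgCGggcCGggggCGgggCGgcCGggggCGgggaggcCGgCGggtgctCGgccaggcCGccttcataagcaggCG
Prdm1, minus strand, chr10:44458699-44458998: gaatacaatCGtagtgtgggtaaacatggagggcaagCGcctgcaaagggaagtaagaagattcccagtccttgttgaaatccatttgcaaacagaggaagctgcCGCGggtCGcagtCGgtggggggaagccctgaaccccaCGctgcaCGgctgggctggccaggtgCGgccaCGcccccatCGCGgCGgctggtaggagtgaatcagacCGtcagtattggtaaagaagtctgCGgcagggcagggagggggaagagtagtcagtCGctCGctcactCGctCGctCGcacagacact
Ifitm1, plus strand, chr7:140967826-140968125: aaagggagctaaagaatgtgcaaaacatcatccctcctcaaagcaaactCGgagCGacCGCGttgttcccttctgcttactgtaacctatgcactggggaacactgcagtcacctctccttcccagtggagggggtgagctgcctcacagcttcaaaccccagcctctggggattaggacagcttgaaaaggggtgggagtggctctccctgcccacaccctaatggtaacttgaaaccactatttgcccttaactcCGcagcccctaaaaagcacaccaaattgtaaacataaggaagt
Ifitm3, minus strand, chr7:141010695-141010994: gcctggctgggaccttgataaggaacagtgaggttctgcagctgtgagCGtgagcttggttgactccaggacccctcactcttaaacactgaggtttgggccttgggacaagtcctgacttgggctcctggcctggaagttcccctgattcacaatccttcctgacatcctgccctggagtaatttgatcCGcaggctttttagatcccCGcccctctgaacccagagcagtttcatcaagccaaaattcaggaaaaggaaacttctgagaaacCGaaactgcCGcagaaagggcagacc
The Kit and Prdm1 windows hold 20 CG dinucleotides each and the Alpl window 26, against a median of 7 over the 32851 promoters of the table. The Ifitm1 and Ifitm3 windows hold 5 each, and the window of a second listed start of Alpl, not printed, holds 4. CpG-rich starts were thus found both for genes that rose and for a gene that fell in 2i. Methylation was not measured by these arrays.

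5 motifs were searched on both strands: CACGTG (an E-box, in 7.15% of the promoters), TTCNNNGAA (the STAT consensus, 8.3%), the core of the interferon-stimulated response element (a pair of GAAA blocks with any 2 bases between them, 3.44%), CTTTGAT (the TCF consensus, 3.73%) and TATAAA (the TATA box, 13.6%). Ifitm3 had GAAAAGGAAA from position 3 and GAAACCGAAA from position 20, both matches to the interferon element, counting from 1 at the start of transcription. It also had TTCTGAGAA, a STAT match, from position 14, which overlaps the second of these. The Ifitm1 window held none of the 5 motifs, nor did those of Kit, Prdm1 and the printed Alpl start. The second listed start of Alpl held 1 TATAAA match, on the other strand, at position −192.

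Differences in these genes were called between cultures and not between cell origins. Kit and Alpl rose in 2i in EG and in ES lines, and Prdm1 and Dnd1 fell in both. None of the 9 was called when EG lines were set against ES lines in 1 culture, where few genes of any kind were. Of all genes, 3.72% were called in EG 2i against ES 2i. In EG 2is against ES 2i the share was 0.0451%, and in EG FCS against ES FCS it was 0.01%. In EG 2i against EG FCS, 3 of the 9 rose and 3 fell, where 23.9% of all genes were called (11.4% higher, 12.5% lower). In EG 2is against EG FCS, 2 rose and 2 fell, where 25.6% of all genes were called (12.7% higher, 12.9% lower). In ES 2i against ES FCS, 2 rose and 4 fell, where 31.6% of all genes were called (16.6% higher, 14.9% lower). The samples of the 2 cultures did not overlap for 5, 4 and 5 of the 9 genes in these comparisons, as was so for 24.2%, 24.5% and 22.2% of all genes. The median differences of the 9 genes were 0.0, −0.14 and −0.48 in these comparisons, against 0.01, −0.01 and 0.0 over all genes.

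**Figure D1:**
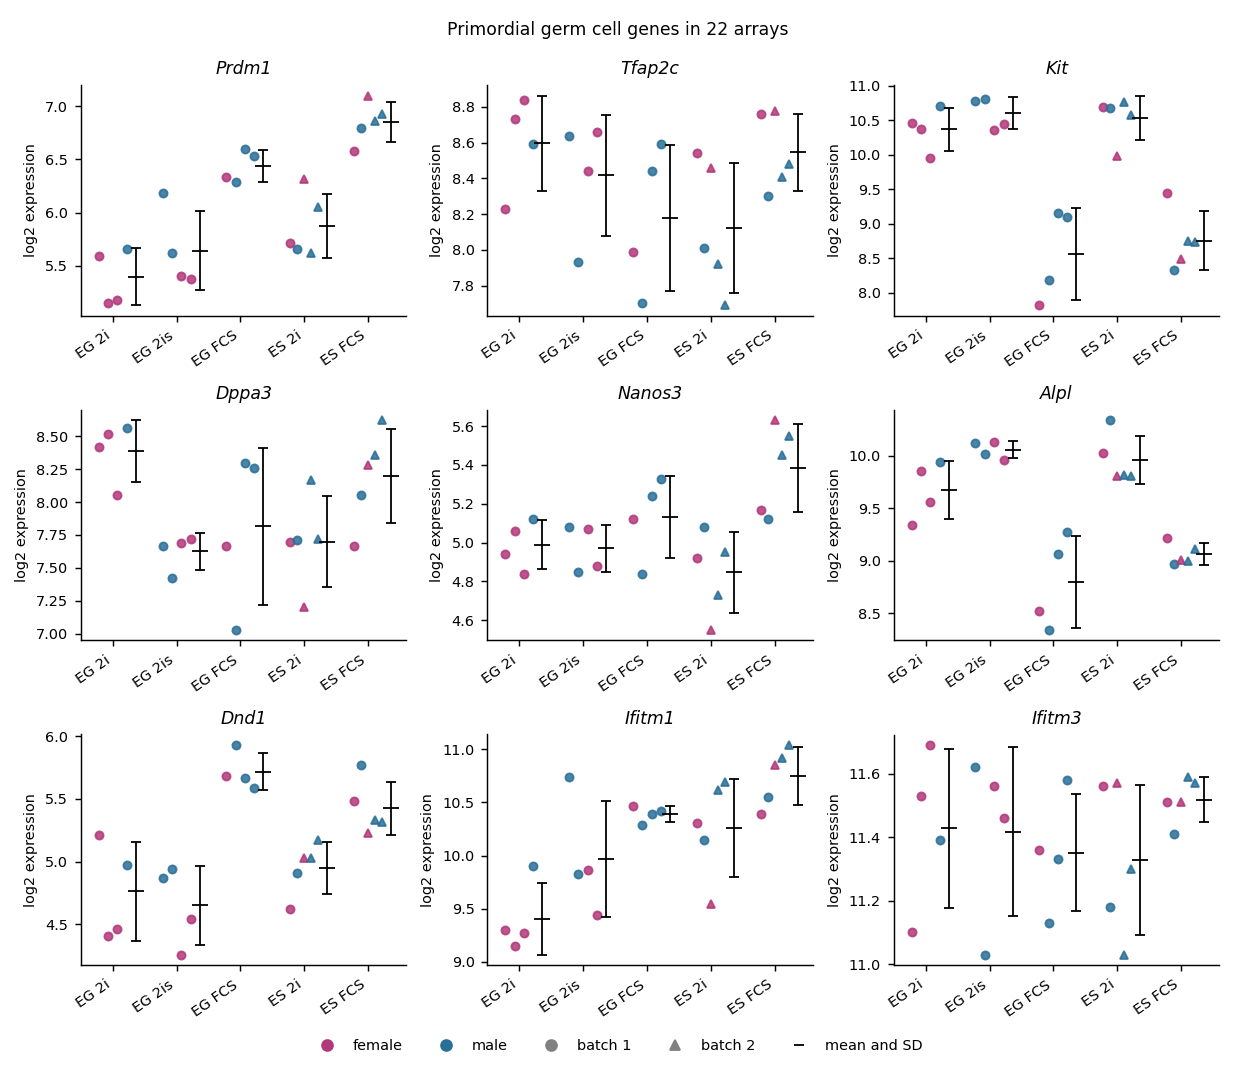
Log2 expression (vertical axis, a separate scale for each gene) of the 9 PGC genes in 22 arrays, grouped as EG 2i, EG 2is, EG FCS, ES 2i and ES FCS. Points are samples coloured by sex, circles are batch 1 and triangles batch 2, and bars show the mean and SD of each group; every 2i and 2is sample lies above every FCS sample for Kit and Alpl.

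Prdm1 encodes Blimp1, the repressor that silences the somatic programme in newly specified PGCs. It read 5.59, 5.15, 5.18 and 5.66 in EG 2i lines 1 to 4 and 6.18, 5.62, 5.4 and 5.37 in EG 2is lines, against 6.33, 6.29, 6.6 and 6.53 in EG FCS lines. In ES lines it read 5.71, 5.66, 6.32, 5.62 and 6.05 in 2i, against 6.58, 6.8, 7.1, 6.86 and 6.93 in FCS. Within each origin every 2i or 2is sample was below every FCS sample. The fitted difference was −0.99 (SE 0.17, adjusted p = 2.9e-04) in EG 2i against EG FCS. It was −0.77 (SE 0.17, adjusted p = 0.00164) in EG 2is against EG FCS. It was −0.98 (SE 0.15, adjusted p = 3.4e-05) in ES 2i against ES FCS, close to a halving in level as in EG 2i. Prdm1 was thus lower in the culture in which Prdm14, its partner in PGC specification, was higher. Prdm14 averaged 9.09 in EG 2i against 6.66 in EG FCS, a fitted rise of 2.17 (adjusted p = 3.1e-06). It averaged 8.53 in ES 2i against 7.07 in ES FCS, a fitted rise of 1.47 (adjusted p = 1.8e-05).

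Tfap2c encodes the transcription factor AP-2γ, which acts downstream of Prdm1 in PGCs and also in trophoblast. Its level ranged from 8.23 to 8.84 in EG 2i and from 7.93 to 8.66 in EG 2is, against 7.7 to 8.59 in EG FCS. It ranged from 7.69 to 8.54 in ES 2i, against 8.3 to 8.78 in ES FCS. The groups overlapped in both origins. The fitted difference was 0.29 in EG 2i against EG FCS (95% interval −0.14 to 0.72) and −0.42 in ES 2i against ES FCS (95% interval −0.79 to −0.05, adjusted p = 0.0772). Neither passed the test, and the difference between them, 0.71 (95% interval 0.14 to 1.28, adjusted p = 0.193), did not either.

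Kit encodes the receptor tyrosine kinase for Kit ligand (stem cell factor), which PGCs need to survive and migrate. Its level was 10.46, 10.37, 9.95 and 10.7 in EG 2i lines 1 to 4 and 10.78, 10.81, 10.36 and 10.45 in EG 2is lines, against 7.82, 8.18, 9.16 and 9.1 in EG FCS lines. In ES lines it was 10.69, 10.67, 9.98, 10.77 and 10.57 in 2i, against 9.45, 8.33, 8.49, 8.75 and 8.74 in FCS. All 13 samples in 2i or 2is were above all 9 in FCS, and EG and ES samples overlapped within each culture. Kit showed the largest difference of the 9 genes in each of the 3 culture comparisons. It was 3.9-fold higher in EG 2i than in EG FCS (1.96, SE 0.26, adjusted p = 2.3e-05) and 4.32-fold higher in EG 2is than in EG FCS (2.11, SE 0.25, adjusted p = 4.7e-06). It was 3.44-fold higher in ES 2i than in ES FCS (1.78, SE 0.22, adjusted p = 5.0e-06). ES 2i line 3, at 9.98, stood apart below the other 4 lines of its group, of which the lowest was 10.57.

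The ligand was called only in ES lines, and there in the other direction than its receptor. Kitl averaged 5.2 in EG 2i against 5.17 in EG FCS, a fitted difference of −0.01 (adjusted p = 0.976). It averaged 4.98 in ES 2i, close to the background level of 4.88, against 5.57 in ES FCS. The fitted fall of Kitl in ES lines was 0.59 (adjusted p = 0.00138). Of the 8 measured genes of the list of Kit ligand, survival and migration genes, 1 rose and 4 fell in EG 2i against EG FCS. In ES 2i against ES FCS 0 rose and 4 fell (medians −0.22 and −0.42). Of all genes, 23.9% and 31.6% were called in these comparisons. Fgfr2, an FGF receptor, fell in both, by 1.38 in EG 2i against EG FCS (adjusted p = 3.9e-05) and by 2.01 in ES 2i against ES FCS (adjusted p = 4.2e-08). Cxcl12, the chemokine that guides migrating PGCs, fell by 0.41 in EG 2i and by 0.67 in ES 2i against FCS (adjusted p = 0.00208 and 1.7e-06). Cxcl12 is also made by fibroblasts, and most of the called fibroblast genes were higher in FCS, as given below. The part of feeder cells in the Cxcl12 values was not tested. Its receptor Cxcr4 was called in neither (fitted differences 0.26 and −0.29). Between the origins, however, Cxcr4 was called higher in EG 2i than in ES 2i, by 0.73. It was the only 1 of the 8 genes called there, where 3.72% of all genes were called.

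Dppa3 encodes Stella (PGC7), a maternal and PGC protein that protects DNA methylation in the zygote and interferes with the maintenance factor Uhrf1. Its level was 8.42, 8.52, 8.05 and 8.56 in EG 2i lines 1 to 4 and 7.67, 7.42, 7.69 and 7.72 in EG 2is lines, against 7.67, 7.03, 8.3 and 8.26 in EG FCS lines. In ES lines it was 7.7, 7.71, 7.2, 8.17 and 7.72 in 2i, against 7.67, 8.05, 8.28, 8.36 and 8.62 in FCS. EG 2i samples were all above EG 2is samples, while 2i and FCS samples overlapped in both origins. The gene rose by 0.67 in EG 2i against EG FCS (SE 0.24, adjusted p = 0.046). This call was lost in 14 of the 22 fits that left out 1 array (adjusted p = 0.05 to 0.126), and without EG FCS line 2 the difference was 0.42. Those 14 arrays were EG 2i lines 1, 2 and 4, EG 2is line 1, EG FCS lines 1 and 2, ES 2i lines 2, 4 and 5 and all 5 ES FCS lines. The fitted difference was −0.5 in ES 2i against ES FCS (95% interval −0.92 to −0.07, adjusted p = 0.0717), and in EG 2is against EG FCS it was −0.14 (adjusted p = 0.728).

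Dppa3 had the furthest estimate from 0 of the 9 genes in EG 2i against ES 2i and in the difference between responses, but not in EG FCS against ES FCS (−0.27) or over both cultures (0.32). It was 1.87-fold higher in EG 2i than in ES 2i (0.9, 95% interval 0.38 to 1.43, adjusted p = 0.0503), just outside the call. Within batch 1, which holds all EG lines and 2 lines of each ES group, this difference was 0.71 (adjusted p = 0.238). Leaving out EG FCS line 2, 3 or 4 brought it into the call, at adjusted p values of 0.0123, 0.0486 and 0.0477. The response to 2i differed between EG and ES lines by 1.17 (95% interval 0.52 to 1.82, adjusted p = 0.0665), and by 0.78 within batch 1 (adjusted p = 0.544). Direct derivation in 2i also stood above the switched lines: EG 2i was 1.76-fold higher than EG 2is (0.81, 95% interval 0.33 to 1.3, adjusted p = 0.218). In that comparison limma called 0% of all genes, with 2116 of 19938 at an unadjusted p under 0.05. Dppa3 and Alpl were the 2 of the 9 genes whose EG 2i and EG 2is samples did not overlap, against 4.31% of all genes.

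A second probe set for Dppa3 was listed with the same gene and transcripts, and the reference holds a pseudogene, Dppa3-ps, on the X chromosome, so that the values may mix both sources. On the second set the level was 7.22, 7.48, 7.15 and 7.15 in EG 2i lines and 6.44, 6.54, 6.73 and 6.6 in EG 2is lines, against 6.82, 6.48, 7.19 and 6.89 in EG FCS lines. It was 6.56, 6.89, 6.1, 7.18 and 6.72 in ES 2i lines, against 6.77, 7.16, 7.2, 7.51 and 7.7 in ES FCS lines. EG 2i samples again lay above all EG 2is samples, and the ES groups again overlapped. On this set EG 2i against ES 2i gave 0.74 (adjusted p = 0.0481) and the difference between responses 1.08 (adjusted p = 0.0402), both inside the call. EG 2i against EG FCS gave 0.51 (adjusted p = 0.0646), outside it, and ES 2i against ES FCS fell by 0.57 (adjusted p = 0.0106), inside it.

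**Figure D2:**
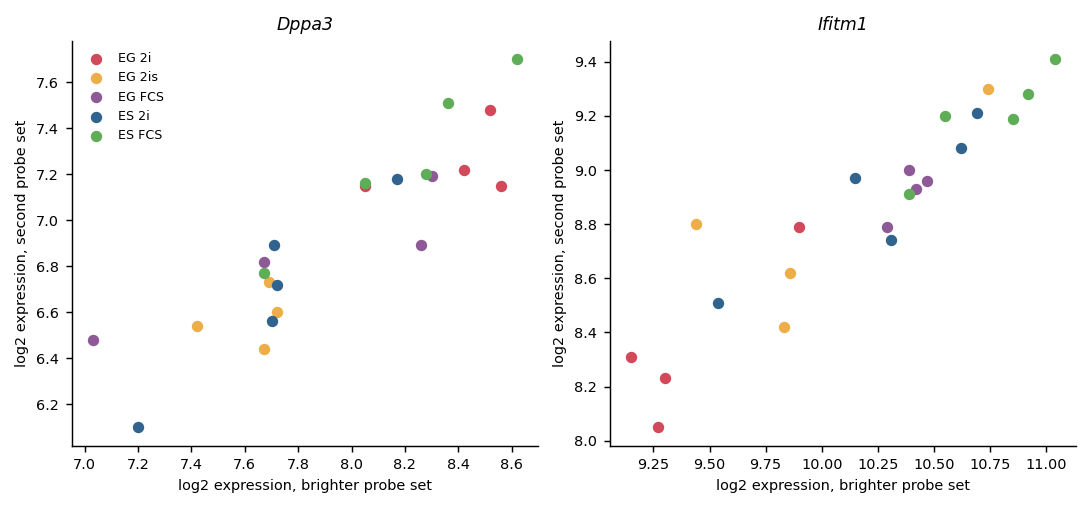
Log2 expression of Dppa3 and Ifitm1 in 22 arrays on the brighter probe set (horizontal axis), which was used for the tests, and on a second probe set (vertical axis), coloured by group. Each point is 1 sample. Samples high on one set were mostly high on the other. For Dppa3, EG 2i and most ES FCS samples lay toward the upper right. For Ifitm1, EG 2i samples lay mostly at the lower left.

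Nanos3 and Dnd1 encode RNA-binding proteins whose loss depletes PGCs. Nanos3 was near background in all groups. It ranged from 4.84 to 5.12 in EG 2i and from 4.85 to 5.08 in EG 2is, against 4.84 to 5.33 in EG FCS, and the groups overlapped. It ranged from 4.55 to 5.08 in ES 2i, against 5.12 to 5.63 in ES FCS, with no overlap. The fitted difference was −0.11 in EG 2i against EG FCS (95% interval −0.4 to 0.17, adjusted p = 0.616). It fell by 0.53 in ES 2i against ES FCS (SE 0.12, adjusted p = 0.00128), and within batch 1 the difference was −0.14 (adjusted p = 0.635), where each ES group had 2 lines. Its paralog Nanos1 was higher in EG 2i than in ES 2i by 0.51 (adjusted p = 0.0061) and higher in EG 2i than in EG FCS by 0.33 (adjusted p = 0.00928).

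Dnd1 fell in 2i in both origins. It read 5.21, 4.41, 4.46 and 4.97 in EG 2i lines 1 to 4 and 4.87, 4.94, 4.26 and 4.54 in EG 2is lines, against 5.68, 5.93, 5.67 and 5.59 in EG FCS lines. In ES lines it read 4.62, 4.91, 5.03, 5.03 and 5.17 in 2i, against 5.48, 5.77, 5.23, 5.33 and 5.32 in FCS. No 2i or 2is sample reached the lowest FCS sample of its origin. The fitted difference was −0.84 (SE 0.17, adjusted p = 9.9e-04) in EG 2i and −1.0 (SE 0.16, adjusted p = 1.0e-04) in EG 2is, both against EG FCS. It was −0.48 in ES 2i against ES FCS (SE 0.14, adjusted p = 0.0137). Without ES 2i line 1 or ES FCS line 2 the ES call was lost, with a difference of −0.4 in each case (adjusted p = 0.0521 and 0.053). Within batch 1 the ES difference was −0.86 (adjusted p = 0.0167). EG and ES responses differed by −0.36 (95% interval −0.82 to 0.1, adjusted p = 0.449).

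Alpl encodes tissue-nonspecific alkaline phosphatase, the enzyme whose staining has long marked PGCs as well as ES and EG colonies. Its level was 9.34, 9.86, 9.56 and 9.94 in EG 2i lines 1 to 4 and 10.12, 10.02, 10.13 and 9.96 in EG 2is lines, against 8.52, 8.34, 9.06 and 9.27 in EG FCS lines. In ES lines it was 10.03, 10.34, 9.81, 9.82 and 9.81 in 2i, against 9.22, 8.97, 9.01, 9.0 and 9.11 in FCS. As for Kit, all 2i and 2is samples were above all FCS samples. It was 1.92-fold higher in EG 2i (0.94, SE 0.17, adjusted p = 3.4e-04) and 2.46-fold higher in EG 2is (1.3, SE 0.16, adjusted p = 6.7e-06), both against EG FCS. It was 1.86-fold higher in ES 2i than in ES FCS (0.9, SE 0.14, adjusted p = 6.2e-05). EG 2is samples were all above EG 2i samples, but the difference, −0.35 for EG 2i against EG 2is, was not called (adjusted p = 0.45).

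Ifitm1 (Fragilis2) and Ifitm3 (Fragilis) are interferon-inducible membrane proteins on the surface of early PGCs, and their genes lie next to each other on chromosome 7. Ifitm1 read 9.3, 9.15, 9.27 and 9.9 in EG 2i lines 1 to 4 and 10.74, 9.83, 9.86 and 9.44 in EG 2is lines, against 10.47, 10.29, 10.39 and 10.42 in EG FCS lines. In ES lines it read 10.31, 10.15, 9.54, 10.62 and 10.69 in 2i, against 10.39, 10.55, 10.85, 10.92 and 11.04 in FCS. EG 2i was below every EG FCS sample, while EG 2is line 1 was above them and the ES groups overlapped. Ifitm1 fell by 0.79 in EG 2i against EG FCS (SE 0.21, adjusted p = 0.00982), and without EG FCS line 1 by 0.6, outside the call (adjusted p = 0.0859). In EG 2is against EG FCS the difference was −0.32 (adjusted p = 0.29), and without EG 2is line 1 it was −0.55 (adjusted p = 0.0474), inside the call.

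In ES 2i against ES FCS Ifitm1 fell by 0.49 (SE 0.18, adjusted p = 0.0454). This call was lost in 13 of the 22 fits that left out 1 array (adjusted p = 0.0506 to 0.174), and without ES 2i line 3 the difference was −0.31. Those arrays were EG 2i lines 1 to 3, EG 2is line 3, EG FCS lines 3 and 4, ES 2i lines 2 to 4 and ES FCS lines 1, 3, 4 and 5. Within batch 1 the ES difference was −0.24 (adjusted p = 0.666). On a second probe set the ES difference was −0.3 (adjusted p = 0.0982).

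Ifitm3 was the steadiest of the 9 genes. Its level ranged from 11.1 to 11.69 in EG 2i and from 11.03 to 11.62 in EG 2is, against 11.13 to 11.58 in EG FCS. It ranged from 11.03 to 11.57 in ES 2i, against 11.41 to 11.59 in ES FCS. All 5 groups overlapped, and their means spanned only 0.19. The fitted difference was 0.0 in EG 2i against EG FCS (95% interval −0.3 to 0.3) and −0.19 in ES 2i against ES FCS (95% interval −0.45 to 0.06). Ifitm2, on the other side of Ifitm1, rose slightly in both, by 0.21 in EG 2i and 0.15 in ES 2i against FCS (adjusted p = 0.0244 and 0.0381).

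**Figure D3:**
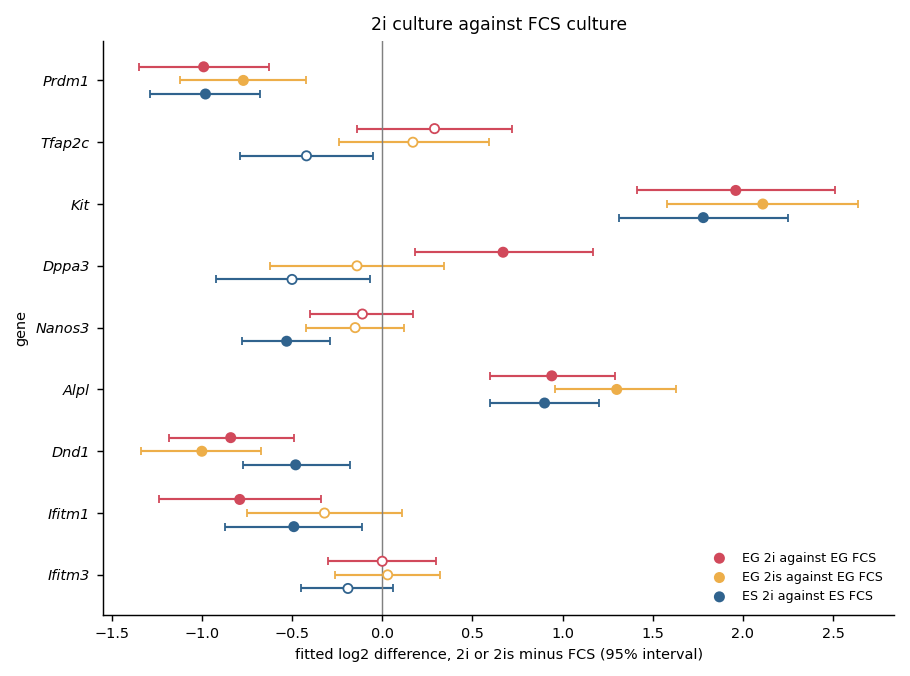
Fitted log2 difference of 2i or 2is minus FCS (horizontal axis) for each PGC gene, with 95% intervals, in EG 2i against EG FCS, EG 2is against EG FCS and ES 2i against ES FCS. Filled points passed an adjusted p of 0.05 and open points did not; Kit lies furthest to the right, between 1.78 and 2.11, and Prdm1 and Dnd1 lie to the left in all 3 comparisons.

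With culture held the same, 0 of the 9 genes were called by limma between the origins. In EG 2i against ES 2i 3.72% of all genes were called, in EG 2is against ES 2i 0.0451%, in EG FCS against ES FCS 0.01%, and over both cultures together 0.0502%. At an unadjusted p under 0.05 there were 3, 0, 1 and 2 of the 9. EG and ES samples of the same culture overlapped for all 9 genes, where 9.69%, 3.3% and 2.77% of all genes did not overlap in the first 3 of these comparisons. In EG 2i against ES 2i the furthest from 0 after Dppa3 were Ifitm1 and Alpl, both on the lower side in EG lines, and over both cultures these 2 were the furthest. In EG FCS against ES FCS the furthest were Alpl, Kit (−0.41) and Tfap2c (−0.37). Ifitm1 was at −0.6 in EG 2i against ES 2i (95% interval −1.07 to −0.13, adjusted p = 0.143) and at −0.75 within batch 1 (adjusted p = 0.15). Without ES 2i line 3 it was −0.72 and inside the call (adjusted p = 0.0413). Alpl was at −0.38 in EG 2i against ES 2i (95% interval −0.75 to −0.01, adjusted p = 0.247) and at −0.46 within batch 1 (adjusted p = 0.334). In EG FCS against ES FCS Alpl was at −0.43 (95% interval −0.79 to −0.06, adjusted p = 0.998) and at −0.34 within batch 1. Over both cultures the estimate was −0.4 for Alpl (95% interval −0.69 to −0.12, adjusted p = 0.307) and −0.45 for Ifitm1 (95% interval −0.82 to −0.08, adjusted p = 0.376).

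Kit, the gene that differed most by culture, gave −0.23 in EG 2i against ES 2i (95% interval −0.81 to 0.35) and −0.41 in EG FCS against ES FCS (95% interval −0.99 to 0.17). Prdm1 gave −0.28 (95% interval −0.66 to 0.1) and −0.27 (95% interval −0.65 to 0.11) in the same comparisons. These intervals leave room for origin differences of a size that the test did not call. EG 2is against ES 2i gave −0.08 for Kit, −0.06 for Prdm1, 0.09 for Dppa3 and −0.03 for Alpl, none of them called. Batch 2 held 3 lines of each ES group and no EG line, so the batch term rests on ES lines alone and origin estimates depend on it. EG and ES comparisons share these arrays with the culture comparisons above.

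**Figure D4:**
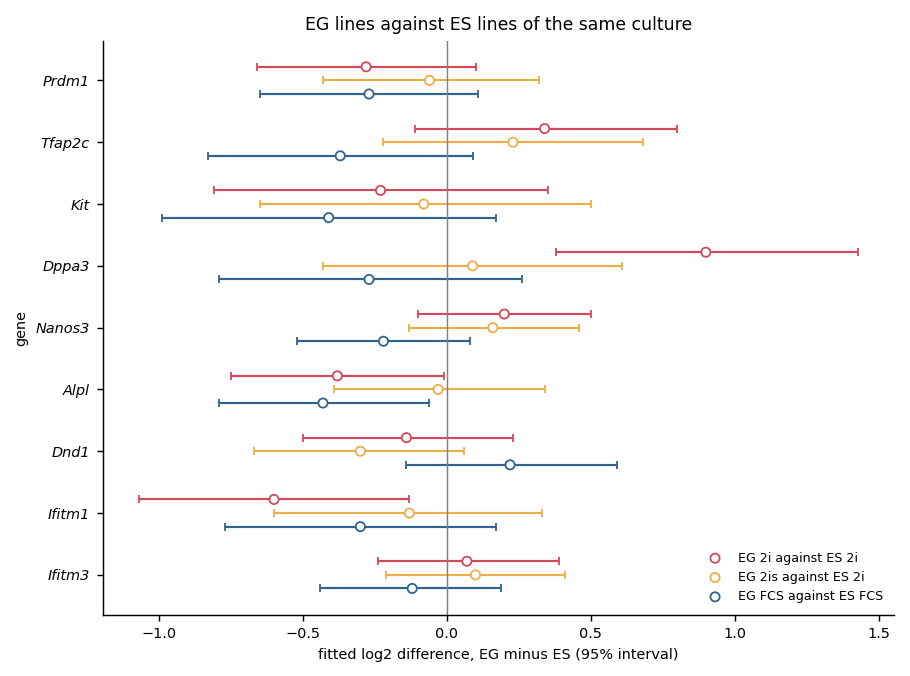
Fitted log2 difference of EG minus ES lines in the same culture (horizontal axis) for each PGC gene, with 95% intervals, in EG 2i against ES 2i, EG 2is against ES 2i and EG FCS against ES FCS. All points are open because none passed an adjusted p of 0.05; Dppa3 in EG 2i against ES 2i lies furthest from 0, at 0.9.

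The response to 2i (EG 2i minus EG FCS, less ES 2i minus ES FCS) differed between origins by a call for 0 of the 9 genes, where 1.44% of all genes were called by limma, and 3 of the 9 had an unadjusted p under 0.05. Those 3 were Dppa3, Tfap2c and Nanos3, for which the response was higher in EG lines, by 1.17, 0.71 and 0.42 (adjusted p = 0.0665, 0.193 and 0.253). Within batch 1 the same values were 0.78, 0.59 and 0.02. Kit and Prdm1 responses differed by 0.18 (95% interval −0.54 to 0.9) and −0.01 (95% interval −0.48 to 0.46). Between female and male lines, with group and batch in the fit, 0 of the 9 were called, where 3.62% of all genes were, and 2 had an unadjusted p under 0.05. Those were Ifitm1, at −0.39 for female against male (95% interval −0.66 to −0.12, adjusted p = 0.0992), and Dnd1, at −0.24 (95% interval −0.45 to −0.03, adjusted p = 0.189).

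Lines of a group did not vary in the same way for each gene. Kit had an SD of 0.67 in EG FCS, against 0.31 in EG 2i and 0.23 in EG 2is. EG FCS lines 1 and 2 were both below lines 3 and 4 for 6 of the 9 genes, Prdm1, Tfap2c, Kit, Dppa3, Nanos3 and Alpl, a pattern found in 24.1% of all genes, and both above them for Dnd1, as in 25.1% of all genes. These lines do not split by sex, line 1 being female and lines 2 to 4 male. The mean of the 9 pluripotency genes was 10.51 and 10.58 in EG FCS lines 1 and 2, and 10.85 and 10.81 in lines 3 and 4. That of the feeder genes was 6.67 and 6.35, and 6.83 and 7.16. ES 2i line 3 was the lowest of its group for Kit, Dppa3, Nanos3 and Ifitm1 and the highest for Prdm1 and Ifitm3, while 55.1% of all genes had this line at one end of the group.

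Most called genes of the feeder fibroblast list were lower in 2i or 2is than in FCS. The list held 21 genes, of which 20 were measured, and in EG 2i against EG FCS 0 rose and 11 fell. In EG 2is against EG FCS 1 rose and 11 fell, and in ES 2i against ES FCS 3 rose and 15 fell. Of all genes, 23.9%, 25.6% and 31.6% were called in these comparisons. The mean of the list lay between 5.73 and 5.9 in EG 2i and between 5.78 and 5.9 in EG 2is, against 6.35 to 7.16 in EG FCS. It lay between 5.66 and 5.92 in ES 2i, against 6.38 to 7.1 in ES FCS. Among the fibroblast genes, Tagln, Lum, Dcn, Postn and Lox averaged below background in EG 2i, and Lum and Dcn did so in EG FCS. In bulk samples fewer cells of a type and less RNA per cell cannot be told apart. With the list's mean as a further term, Kit (3.4, adjusted p = 1.4e-06), Alpl (1.82, adjusted p = 1.1e-05) and Dnd1 (−1.19, adjusted p = 0.0105) stayed called in EG 2i against EG FCS. Dppa3 also stayed called, at 1.46 (adjusted p = 0.0167), and Tfap2c, not called before, came into the call at 1.05 (adjusted p = 0.0373). Prdm1 (−0.93, adjusted p = 0.0613) and Ifitm1 (−0.55, adjusted p = 0.42) did not. In ES 2i against ES FCS Kit, Alpl, Prdm1 and Dnd1 stayed called (largest adjusted p = 0.0485, for Dnd1), and Nanos3 and Ifitm1 did not (adjusted p = 0.876 and 0.702). The list's mean separates the cultures with no overlap, so culture and this mean cannot be told apart here. The differences of Kit, Alpl, Dnd1, Dppa3 and Tfap2c in EG 2i against EG FCS were further from 0 with the term than without it, and those of Prdm1 and Ifitm1 were nearer.

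Markers of other cell types that such cultures can hold were read as well. Of all genes, 23.9% were called in EG 2i against EG FCS and 31.6% in ES 2i against ES FCS. These shares also stand beside the lists below. Of 13 primitive endoderm genes, 5 fell in EG 2i against EG FCS and 3 fell and 1 rose in ES 2i against ES FCS. Their mean lay between 5.51 and 5.6 in EG 2i, against 6.14 to 6.89 in EG FCS. It lay between 5.37 and 5.84 in ES 2i, against 5.83 to 6.11 in ES FCS. The other 12 of these genes averaged above background in EG FCS and in ES FCS, and 1, Sox17, was below it in both. Of 11 trophoblast genes 2 fell in EG 2i against EG FCS, and 2 rose and 3 fell in ES 2i against ES FCS. Their mean lay between 5.89 and 6.22 in EG 2i, against 6.1 to 6.54 in EG FCS, and between 5.68 and 6.62 in ES 2i, against 6.23 to 6.74 in ES FCS. Of the 11, Elf5 averaged below background in all 5 groups and Krt7 in EG 2i, and the others were above it in every group. Their part in the values of Tfap2c and Prdm1 was not tested.

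The signals that induce PGCs were read from a list of 12 genes, of which 11 were measured. In EG 2i against EG FCS 3 rose and 1 fell (median 0.01), and in ES 2i against ES FCS 2 rose and 4 fell (median −0.08). Bmp4, the main inducer in the embryo, averaged 6.3 in EG 2i against 8.35 in EG FCS, a fall of 1.97 (adjusted p = 1.6e-04). It averaged 6.28 in ES 2i against 8.68 in ES FCS, a fall of 2.41 (adjusted p = 1.5e-06). The signal transducer Smad1 rose by 0.42 in EG 2i and by 0.52 in ES 2i against FCS (adjusted p = 0.00965 and 2.9e-04), and the receptor Acvr1 by 0.26 and 0.38 (adjusted p = 0.0409 and 5.9e-04). Smad4 rose by 0.37 in EG 2i against EG FCS. In ES 2i against ES FCS Bmp8b, Wnt3 and Bmp2 also fell, by 0.49, 0.35 and 0.23. Bmp4 thus fell while Smad1 and Acvr1 rose by smaller amounts. In EG 2i against ES 2i 1 gene of the list was called, Smad4, at 0.24, where 3.72% of all genes were called.

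Of 9 measured partners of Prdm1, Nanos3 and Dnd1, 0 rose in EG 2i or in ES 2i against FCS of the same origin. In EG 2is against EG FCS 1 rose, the corepressor Tle3, by 0.3 (adjusted p = 0.0362). There 2 fell, Cnot6 by 0.33 and Wdr77 by 0.29, where 25.6% of all genes were called. In EG 2i against EG FCS 2 fell, Hdac3 by 0.36 (adjusted p = 1.5e-04) and Cnot6, a subunit of the CCR4-NOT deadenylase, by 0.27 (adjusted p = 0.034). In ES 2i against ES FCS 3 fell, among them Cnot6 by 0.32 (adjusted p = 0.00299), Wdr77 by 0.37 (adjusted p = 0.0011) and Prmt5, the arginine methyltransferase that binds Blimp1, by 0.28 (adjusted p = 0.0109). Prmt5 was at −0.06 in EG 2i against EG FCS (adjusted p = 0.706). Hdac3 was the only partner called in EG 2i against ES 2i, at −0.38 (adjusted p = 0.00376), where 3.72% of all genes were called. Its response to 2i differed between EG and ES lines by −0.4 (adjusted p = 0.0167). No partner was called in EG 2is against ES 2i, in EG FCS against ES FCS or over both cultures.

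Other early germ cell regulators moved in both directions. Of 9, 3 rose and 2 fell in EG 2i against EG FCS, and 3 rose and 3 fell in ES 2i against ES FCS (medians 0.14 and −0.42). Besides Prdm14, the largest was Lin28a, which blocks let-7 maturation and is needed for PGC development. It averaged 5.89 in EG 2i against 9.35 in EG FCS (−3.37, adjusted p = 9.2e-08) and 7.07 in ES 2i against 9.36 in ES FCS (−2.29, adjusted p = 4.7e-07). Among 9 measured genes of later germ cells, 2 rose and 3 fell in EG 2i against EG FCS, and 2 rose and 5 fell in ES 2i against ES FCS (medians −0.02 and −0.37). Dazl, which binds RNA in germ cells, rose by 2.69 in EG 2i (adjusted p = 1.2e-06) and by 1.72 in ES 2i (adjusted p = 1.2e-05), both against FCS. Ddx4, the Vasa helicase, fell by 1.14 in EG 2i (adjusted p = 0.00278) and by 1.61 in ES 2i (adjusted p = 1.2e-05). Mael, which acts in piRNA-mediated silencing, fell by 1.91 (adjusted p = 2.5e-05) and by 2.51 (adjusted p = 7.4e-08) in the same comparisons. Between EG 2i and ES 2i none of these 3 was called (Dazl 0.93, adjusted p = 0.0792). Of the 9 early regulators 1 was called there, Tdrd7, higher in EG 2i by 0.49. Of all genes, 3.72% were called in that comparison.

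Of 19 genes related to the PGC genes by family or name, 3 rose and 2 fell in EG 2i against EG FCS, and 3 rose and 3 fell in ES 2i against ES FCS (medians 0.06 and 0.08). Dppa4, which shares only its name root and not its sequence family with Dppa3, fell by 1.19 and 1.11 (adjusted p = 5.0e-06 and 7.4e-07). Dppa2, its partner, was at 0.06 in EG 2i against EG FCS (adjusted p = 0.847) and fell by 0.98 in ES 2i against ES FCS (adjusted p = 1.7e-05). It averaged 10.77 in EG 2i against 9.63 in ES 2i, a fitted difference of 1.0 (adjusted p = 0.00442), and its response differed by 1.04 (adjusted p = 0.02). In that comparison of EG 2i with ES 2i, 2 of the 19 were higher and 1 was lower, Ifitm7 (−0.4, adjusted p = 0.0408).

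Interferon-response genes were set beside Ifitm1 and Ifitm3, which belong to an interferon-inducible family. Of 8 measured, 1 rose and 2 fell in EG 2i against EG FCS, and 2 rose and 3 fell in ES 2i against ES FCS (medians −0.01 and −0.11). Stat2, a transducer of type I interferon, rose by 1.16 in EG 2i and by 1.68 in ES 2i against FCS (adjusted p = 4.7e-05 and 5.2e-08). Oasl2 and Bst2, both interferon-induced, fell in EG 2i by 0.87 and 1.0 (adjusted p = 9.3e-04 and 0.00145) and in ES 2i by 1.89 and 0.6 (adjusted p = 1.5e-08 and 0.013). Ifitm1 fell in the same comparisons as these 2 genes, while Ifitm3 was called in neither.

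The nearest measured genes on each side were read in the same comparisons. Dnd1 lies on chromosome 18 between Wdr55 and Hars, and both fell with it: Wdr55 by 0.79 in EG 2i and 0.65 in ES 2i, and Hars by 0.57 and 0.39 (all 4 adjusted p at most 3.8e-05). Prdm1 lies on chromosome 10 between Atg5 and Prep. Prep rose by 0.69 in EG 2i and by 0.91 in ES 2i against FCS (adjusted p = 0.00445 and 5.0e-05), the direction opposite to Prdm1, and Atg5 fell by 0.24 and 0.21 (adjusted p = 0.0258 and 0.0182). Kit lies on chromosome 5 between the receptor genes Pdgfra and Kdr, neither of which was called in EG 2i (−0.33 and 0.45) or ES 2i (−0.2 and 0.29) against FCS. Dppa3 lies on chromosome 6 between Gdf3 and Nanog. Nanog rose by 0.73 in EG 2i and 0.6 in ES 2i (adjusted p = 0.0043 and 0.0036), and Gdf3 was called in neither (−0.17 and 0.15). Bmp7, beside Tfap2c on chromosome 2, rose by 0.99 and 1.2 (adjusted p = 8.1e-05 and 8.6e-07). The genes beside Alpl on chromosome 4 are Rap1gap, called in neither, and Ece1, which fell in ES 2i by 0.98 (adjusted p = 0.00462) and was at −0.67 in EG 2i (adjusted p = 0.112).

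For the 5 genes whose group means spanned at least 1 log2 unit, the genes most like them were found by the root mean square difference over the 22 arrays after centring each gene on its mean. Kit was closest to Cpt1a (0.32), Hap1 (0.32) and Zc3hav1 (0.33). Alpl was closest to B4galt6 (0.17), Asah1 (0.18) and Uap1l1 (0.18). Prdm1 was closest to Tiam1 (0.25), Pla2g6 (0.25) and Slc38a2 (0.26). Dnd1 was closest to Bend5 (0.17), Zcwpw1 (0.18) and Evc2 (0.18), and Ifitm1 to Tiam1 (0.24), Mob3a (0.26) and Tbc1d7 (0.27). Tiam1 thus led for both Prdm1 and Ifitm1. It averaged 6.85 in EG 2i, 7.2 in EG 2is and 7.88 in EG FCS, and 7.39 in ES 2i against 8.12 in ES FCS.

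By mean level the groups of each gene fell into an order in which most neighbours overlapped. For Kit the order from the top was EG 2is (10.6), ES 2i (10.54), EG 2i (10.37), ES FCS (8.75) and EG FCS (8.57), and for Alpl it was EG 2is (10.06), ES 2i (9.96), EG 2i (9.68), ES FCS (9.06) and EG FCS (8.8). In both, the samples separated only between EG 2i and ES FCS. For Prdm1 it was ES FCS (6.86), EG FCS (6.44), ES 2i (5.87), EG 2is (5.64) and EG 2i (5.39), with every pair of neighbours overlapping. For Dnd1 it was EG FCS (5.72), ES FCS (5.43), ES 2i (4.95), EG 2i (4.76) and EG 2is (4.65), with a gap only between ES FCS and ES 2i. For Ifitm1 it was ES FCS (10.75), EG FCS (10.39), ES 2i (10.26), EG 2is (9.97) and EG 2i (9.41), and for Dppa3 EG 2i (8.39), ES FCS (8.2), EG FCS (7.82), ES 2i (7.7) and EG 2is (7.62). In these last 2 genes all neighbours overlapped.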

How the data were processed

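RNA of 22 samples was measured on Affymetrix mouse gene arrays. The authors deposited 1 log2 value per probe set and array. Per the submitters' processing notes, these were made with RMA and Affymetrix Expression Console, and limma was also used; their versions, and any adjustment for batch, are not given in the sources used here. The RMA method corrects the background, normalizes by quantiles and summarises probes. Of 28853 probe sets, 21789 carried 1 gene symbol, 1621 several and 5443 none. The brightest probe set of each gene was kept, which left out 1851 and gave 19938 genes.

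limma 3.58.1 (R 4.3.3; lmFit, eBayes) was fitted to all 22 arrays, with terms for group, labelled batch and labelled sex. Fold changes come from this fit, and p-values are two-sided and Benjamini-Hochberg adjusted over all genes. Differences are given as fitted, with standard error (SE) or 95% interval; group values are means with SD. Batch 1 held 16 arrays and batch 2 held 6. The code was tested on simulated data.

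The PGC genes and lists were chosen with earlier results of these data known. All PGC genes were named, with up to 3 called genes of each list per comparison with the smallest adjusted p, a few fixed genes (Pou5f1, Sox2, Nanog, Prdm14, Kitl, Dazl, Ddx4, Eif2s3y), the nearest measured genes on each side, and the 3 genes most like each PGC gene whose group means spanned at least 1 log2 unit. Predicted genes were passed over. Alternatives changed the covariates, the arrays, the scaling, the filter, the probe sets and the test, or left out each array in turn. Motifs and promoters came from RefSeq (GRCm38.p6); the build of the array's annotation is not given in the sources used here, so no other coordinates are printed. No image or scanner file was used here.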

Additional observations from a re-analysis of the deposited data

Results flagged for a closer look

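1 value stood apart from the rest of its group. Kit in ES 2i line 3 read 9.98, and the nearest other line of that group read 10.57; the gap took up 0.745 of the group's whole range. 45 combinations of gene and group were examined in this way, and chance sets apart about 1 in 20. Without this line Kit remained called in ES 2i against ES FCS. The same line correlated least with its group over all genes, at a mean of 0.983 against 0.989 to 0.991 for the other 4 lines.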

How the results depend on the processing

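The calls of Kit, Alpl and, but for the feeder term in EG lines, Prdm1 between the cultures were kept under all alternatives and leave-outs, as were those of Dnd1 in EG lines. Over the 9 genes and all comparisons, 1242 values under alternative settings gave 1197 on the same side of the threshold, 21 that lost and 24 that gained a call, and 0 called values that reversed; 37 values not called changed sign. Of 1980 values with 1 array left out, 1944 kept their side, 30 lost and 6 gained a call, and 56 not called changed sign. The cause was not tested. Tfap2c in ES 2i against ES FCS gained its call with the compared groups alone (adjusted p = 0.00309), the replicate block (0.0466) and array weights (0.00432). Dppa3 in EG 2i against EG FCS lost it under 8 of 14 settings (adjusted p = 0.0506 to 0.169), and Ifitm1 in ES 2i against ES FCS also under 8 of 14 (0.0525 to 0.702).

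The number of called PGC genes moved as follows. In EG 2i against ES 2i it was 2 without the batch term (Dppa3 and Ifitm1), and 1 with quantile normalization repeated, without the dimmest 25% of genes, with the mean of all probe sets, with the feeder term or with the second probe set (Dppa3 each time); over arrays left out it was 0 to 1. Over both cultures it was 1 without the batch term (Ifitm1, adjusted p = 0.034). For the response difference it was 1 with the mean of all probe sets, array weights, the feeder term or the second probe set, and for female against male 1 with the replicate block or the feeder term.

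Counts over all genes moved where covariates or arrays changed. ES 2i against ES FCS gave 6298 calls, 2460 in batch 1 alone, 4040 with the feeder term and 5546 to 6439 with an array left out. EG 2i against EG 2is gave 0, and 1 with the compared groups alone or the feeder term. EG FCS against ES FCS gave 2, with 6 without the batch term, 1 in batch 1 or with the compared groups alone, 4 with the feeder term and 2 to 4 with an array left out. EG 2i against ES 2i gave 742, with 1758 without the batch term, 201 in batch 1, 15 with the compared groups alone and 301 to 872 with an array left out. EG 2is against ES 2i gave 9, with 33 without the batch term, 4 without the sex term, 0 with the compared groups alone, 27 with array weights and 1 to 43 with an array left out. EG against ES over both cultures gave 10, with 502 without the batch term, 5 without the sex term, 6 in batch 1, 4 with the 3-level description block, repeated quantile normalization or array weights, and 1 to 14 with an array left out. The response difference gave 287, with 0 in batch 1, 179 with the description block, 876 with array weights and 110 to 390 with an array left out. Female against male gave 721, with 25 in batch 1 and 268 to 1204 with an array left out.

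Replicate numbers were not taken as pairs, though same-numbered ES lines in the 2 cultures shared sex and batch. The labels do not say whether they are the same lines. Same-numbered ES lines correlated at 0.05, −0.01, 0.17, 0.05 and 0.24 in their deviations. The highest correlation of each ES 2i line with an ES FCS line of another number was 0.25, 0.08, 0.1, 0.1 and 0.21. With the number as a replicate block, 5 PGC genes were called in EG 2i against EG FCS (6 without) and 7 in ES 2i against ES FCS (6 without). Over all genes the replicate block gave 471 calls in EG 2i against ES 2i, 1 in EG against ES over both cultures and 108 for the response difference. The block joined equal numbers across EG and ES lines, some of which differ in sex or batch, so these counts do not reflect pairs.

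Nanos3 everywhere, Dnd1 in 2i and Kitl in ES 2i lie near background, and the batch term rests on the ES lines alone.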
